A study of Mus musculus with 15 samples.

Results

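Oligodendrocyte precursor genes were examined in the dorsal forebrain of C57BL/6J mouse embryos at embryonic day 18 (E18), the tissue from which the neocortex forms. The 9 genes were Olig1, Olig2, Sox10, Nkx2-2, Pdgfra, Cspg4, Gpr17, Cnp and Lhfpl3, chosen by name from 53337 genes, and each gene's level is the sum of its transcripts in TPM, a share of each library's transcripts after correction for length. Dams were infused under the skin by osmotic minipump throughout gestation with arginine vasopressin (AVP), used as a model of preeclampsia, or with saline. By label there were 4 libraries in each group of males, 3 of AVP females and 4 of saline females, and the study dropped a further AVP female as an outlier. The library labelled saline male 12 had the sex-linked transcripts of a female. No transgene, deletion or other treatment was shared by the groups. By the study's methods the libraries of one group came from independent litters, while samples outnumbered litters, so males and females can share a litter. The labels do not link them, and fits that join both sexes treat all libraries as independent.

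Oligodendrocyte precursors are the dividing cells that give rise to the myelin-forming oligodendrocytes of the brain and spinal cord. In the forebrain they arise first from ventral progenitors under hedgehog signalling, migrate dorsally, and are joined around birth by cells born in the cortex itself. OLIG2 commits progenitors to the lineage, PDGFRA carries the growth signal that keeps precursors dividing, and GPR17 and CNP mark cells that begin to differentiate. At E18 the mouse cortex holds precursors but hardly any myelin. In bulk tissue, fewer cells of a type and less RNA per cell cannot be told apart.

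All 9 genes were detected in every library, and 8 of them reached at least 1 TPM in all 15. The order of mean level per transcript length was Olig1 (30.4 TPM), Pdgfra (14.1 TPM), Olig2 (12.8 TPM), Cnp (8.77 TPM), Lhfpl3 (7.22 TPM), Sox10 (4.82 TPM), Gpr17 (3.58 TPM), Cspg4 (3.28 TPM) and Nkx2-2 (0.914 TPM). Olig1 was above Pdgfra, Olig2 above Cnp and Cspg4 above Nkx2-2 in 15 of 15 libraries. Pdgfra was above Olig2 in only 9 of 15 libraries, and Gpr17 above Cspg4 in 10 of 15, so these neighbours did not differ beyond their spread. Cnp was above Lhfpl3 and Lhfpl3 above Sox10 in 13 of 15 libraries each, and Sox10 above Gpr17 in 11 of 15. The spread between libraries was smallest for Cspg4, with a coefficient of variation of 14.9%, and Pdgfra (16.0%). It was largest for Sox10 (55.7%) and Nkx2-2 (50.7%).

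**Figure D1:**
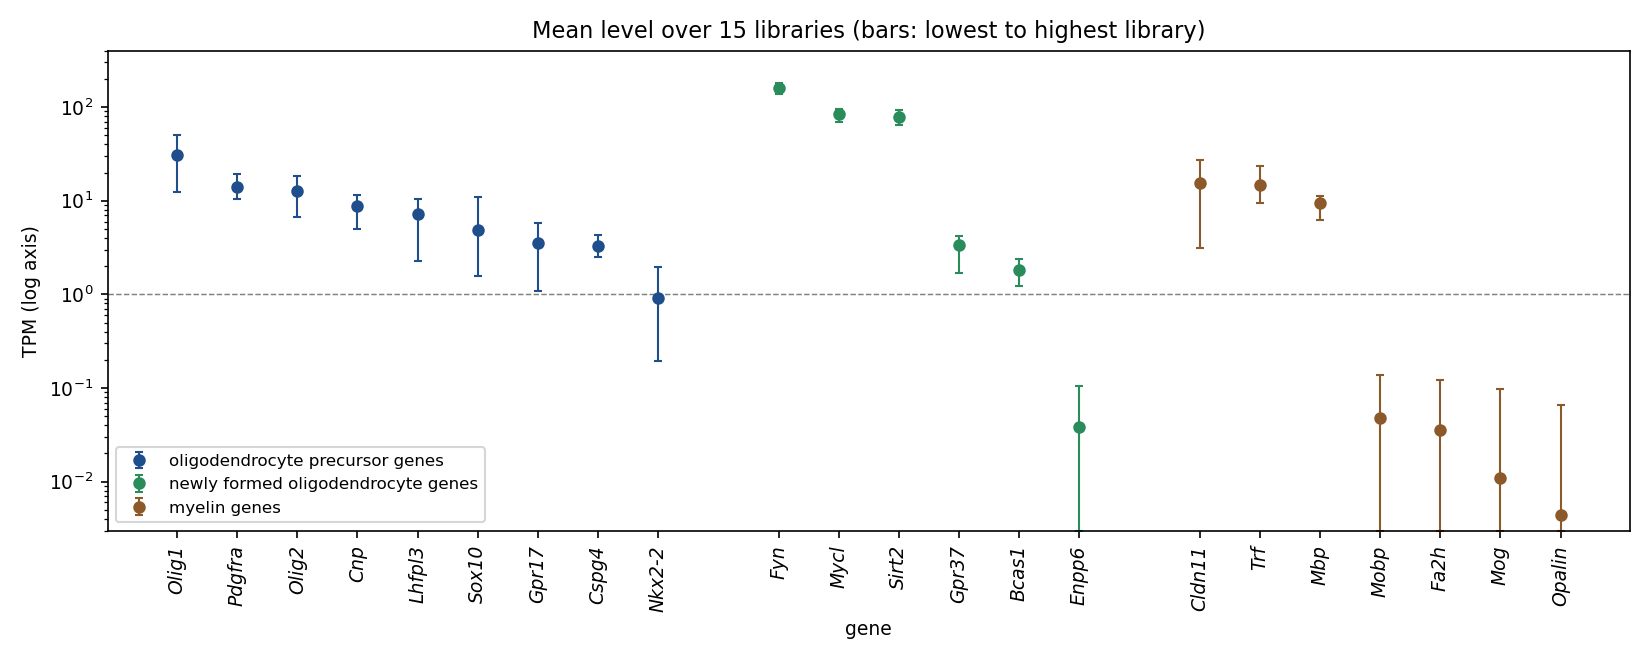
Mean level in TPM, on a log axis, of the oligodendrocyte precursor genes, and of the genes of newly formed oligodendrocytes and of myelin that the text names, over 15 libraries, with bars from the lowest to the highest library and a dashed line at 1 TPM. The precursor genes run from 30.4 to 0.914 TPM, while Enpp6, Mobp, Fa2h, Mog and Opalin lie below 0.05 TPM on average.

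Genes of later stages were read for the same libraries. Enpp6, which marks newly formed oligodendrocytes, averaged 0.0387 TPM, and the myelin genes Mog (0.0109 TPM), Opalin (0.0044 TPM), Mobp (0.0475 TPM) and Fa2h (0.0360 TPM) stayed at or below 0.139 TPM in every library. Myrf, which switches on myelin gene transcription, was at 0.421 TPM. Mbp (9.39 TPM), Cldn11 (15.5 TPM) and Trf (14.9 TPM) were present, all genes that are also expressed outside this lineage. The defining markers of the labelled tissue were high, with Neurod6, a cortical projection neuron gene, at a mean of 579 TPM and Neurod2, a related factor of cortical neurons, at 181 TPM.

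Several facts of the libraries touch the results. The libraries AVP female 10 and saline female 15 stood apart in Schwann cell and neural crest markers, as described with Sox10. Xist was at 266 TPM in the library labelled saline male 12, with 0.489 TPM over 4 Y-linked genes, against 0.121 to 1.13 and 102 to 155 TPM in the other males. Females had 174 to 294 TPM of Xist and 0.250 to 1.01 TPM over the Y-linked genes, so by these transcripts this library is female. It was analysed under its label, as a saline male, and was also left out in turn. Library AVP female 11 was the lowest of all 15 for 8 of the 9 genes. All depths are unknown, because TPM keep none.

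The first question was whether AVP changed these genes in females, tested with limma on log2(TPM + 0.5) with Benjamini-Hochberg adjustment over 15132 genes. None of the 8 genes tested passed an adjusted p of 0.05, where 0% of all genes did. At an unadjusted p under 0.05, 3 of 8 were lower in AVP-exposed females and none higher, against 2.17% of all genes lower and 4.51% called in either direction. These 3, Olig1, Olig2 and Gpr17, varied together within groups (r from 0.63 to 0.82), so they are not 3 separate results. Without AVP female 11 only Olig1 stayed under that p. Nkx2-2 was below the filter of 1 TPM in at least 50% of libraries in every comparison and was not tested there. The log2 fold change was below 0 for all 8 genes tested, as it was for 63.1% of all genes, with a median of -0.53 against -0.05 over all genes. Without AVP female 11 the median was -0.16, and Sox10 (0.094) and Pdgfra (0.10) were above 0. Every AVP female library was below every saline female library for 2 genes, Olig1 and Olig2, a pattern that 2.77% of all genes tested showed.

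**Figure D2:**
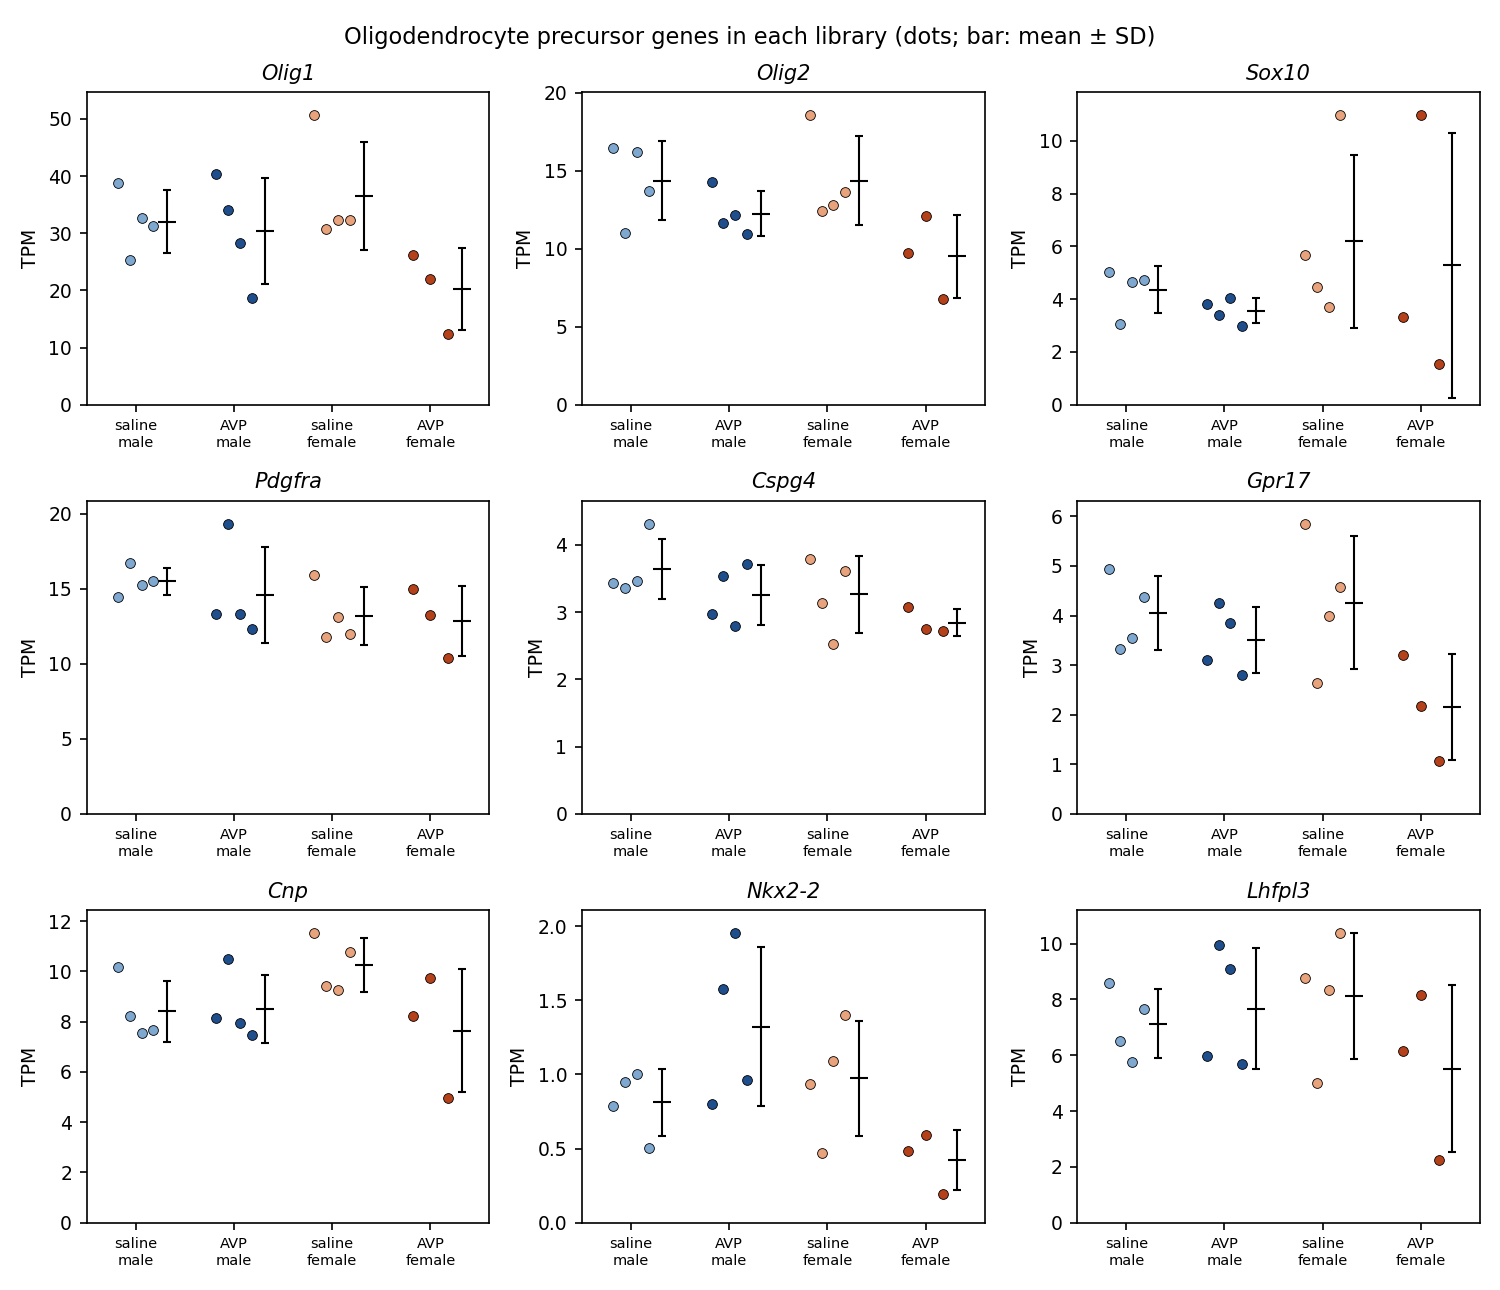
TPM of each of the 9 genes in the 4 groups, with 1 dot per library and the mean ± SD beside it (n = 4, AVP female n = 3). The AVP female dots of Olig1 (12.3 to 26.3 TPM) and Olig2 (6.75 to 12.1 TPM) lie below all saline female dots, and the male groups overlap for every gene.

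Olig1 and Olig2 encode related basic helix-loop-helix factors and lie 41094 bp apart on chromosome 16 (GRCm38, plus strand), Olig2 at 91225457 to 91228677 and the single-exon Olig1 at 91269772 to 91271933. Olig1, which promotes differentiation of precursors, was at 30.7, 32.3, 32.4 and 50.7 TPM in saline females and at 12.3, 22.1 and 26.3 TPM in AVP females. The group means were 36.5 ± 9.46 TPM (SD, n = 4) and 20.2 ± 7.17 TPM (SD, n = 3). The groups did not overlap, AVP female 11 was the lowest, and saline female 6 stood well above the other saline females. The log2 fold change was -0.87 ± 0.27 (SE), with a 95% interval from -1.50 to -0.25 (limma adjusted p = 0.999), and the gene ranked 156 of 15132 by p. The exact two-sided permutation test gave p = 0.0286 for 3 against 4 libraries, the smallest that this design allows, among 18 such tests of 9 genes in both sexes. Without AVP female 11 the log2 fold change was -0.56, still at an unadjusted p under 0.05.

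Olig2 was at 12.4, 12.8, 13.7 and 18.6 TPM in saline females and at 6.75, 9.70 and 12.1 TPM in AVP females. The groups again did not overlap, but the highest AVP female was only 0.31 TPM below the lowest saline female. The means were 14.4 ± 2.85 TPM (SD, n = 4) and 9.51 ± 2.67 TPM (SD, n = 3), a log2 fold change of -0.59 ± 0.22 (SE; limma adjusted p = 0.999), and the exact permutation p was 0.0286. Leaving out AVP female 11 moved the log2 fold change to -0.37, and the unadjusted p was then above 0.05. The same held for -0.46 without saline female 6.

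Sox10, which acts with OLIG2 downstream of it and is also a neural crest and Schwann cell factor (chromosome 15, 79154908 to 79165240, minus strand), had overlapping groups. Saline females had 3.69, 4.45, 5.68 and 10.96 TPM and AVP females 1.55, 3.31 and 10.97 TPM. One library in each group was far above the rest, saline female 15 and AVP female 10. The log2 fold change was -0.47 ± 0.57 (SE; limma adjusted p = 0.999; exact permutation p = 0.486). Without AVP female 11 it turned to 0.094. Without both high libraries it was -0.85 (limma adjusted p = 0.643), at an unadjusted p under 0.05, an alternative added after their levels were seen. The only AVP females left were then AVP female 3 and AVP female 11, the lowest for Sox10.

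**Figure D3:**
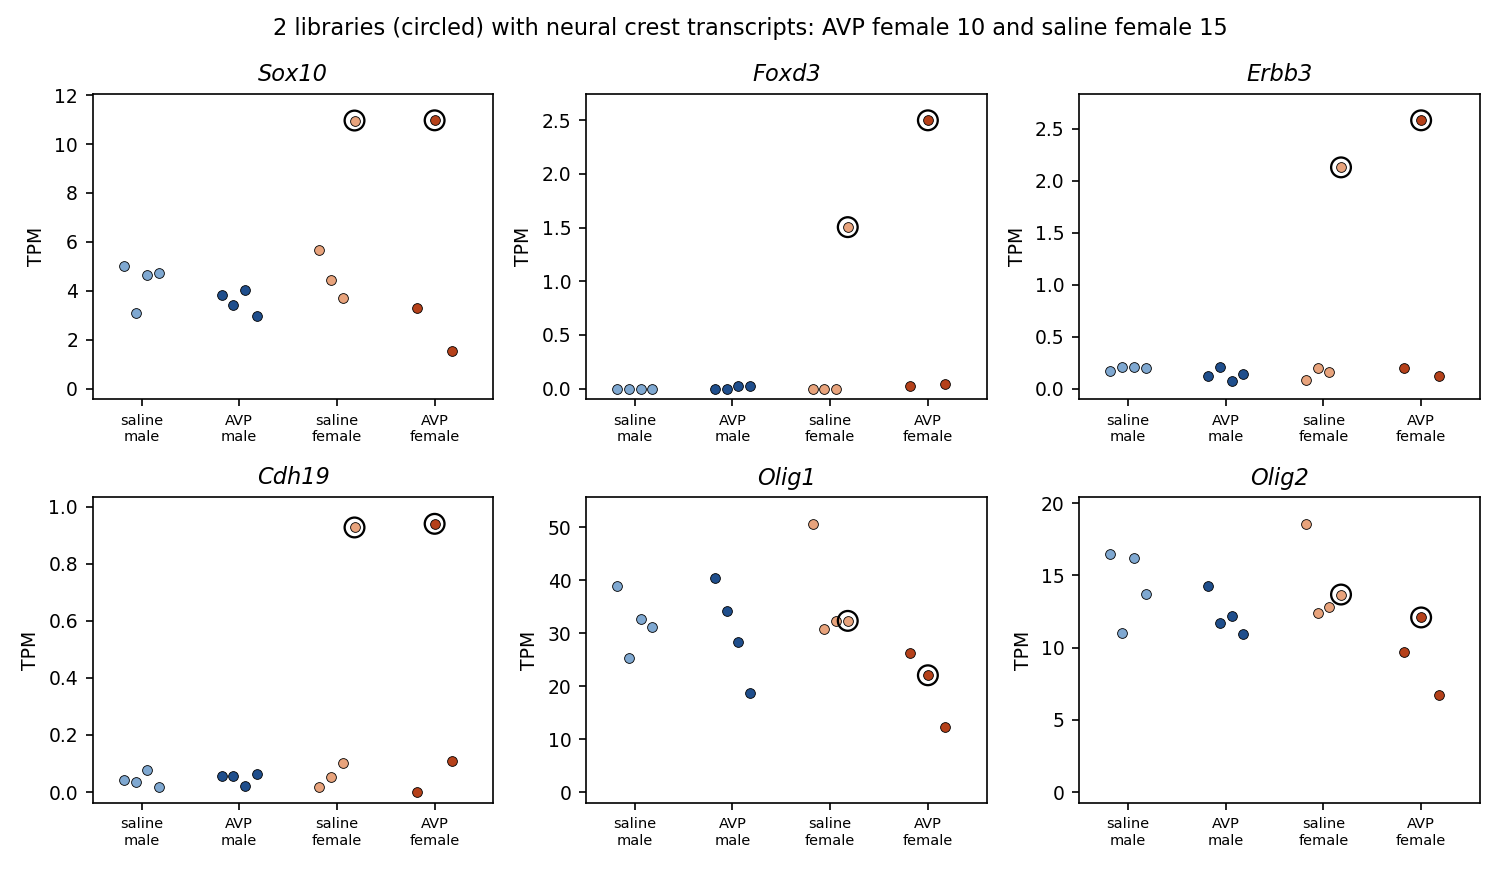
TPM of Sox10, Foxd3, Erbb3, Cdh19, Olig1 and Olig2 by group, with 1 dot per library and circles around AVP female 10 and saline female 15. Both circled libraries are far above the other 13 in the first 4 genes, while in Olig1 and Olig2 they lie within the range of the others.

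The same 2 libraries were above all others in 4 of 6 Schwann cell and neural crest markers, with Dhh and Gfra3 the exceptions. Foxd3, a neural crest factor, was at 2.50 TPM in AVP female 10 and 1.504 TPM in saline female 15, with a maximum of 0.0434 TPM in the other 13 libraries. Erbb3, the neuregulin receptor of Schwann cell precursors, was at 2.58 and 2.13 TPM against at most 0.211 TPM. Cdh19, a cadherin of Schwann cell precursors, was at 0.940 and 0.927 TPM against at most 0.110 TPM. Olig1 (22.1 and 32.3 TPM) and Olig2 (12.1 and 13.7 TPM), which the neural crest lineage lacks, were within the range of the other libraries. The part of these transcripts in the Sox10 values was not tested. Without both libraries, the female log2 fold changes were -1.02 for Olig1, -0.79 for Olig2, -0.61 for Cnp and -0.89 for Gpr17, and the median of the 8 genes was -0.81. Of these, Gpr17 was then above an unadjusted p of 0.05 and the other 3 below it. The only AVP females left in this fit were AVP female 3 and AVP female 11. AVP female 11 was the lowest of all 15 libraries for 8 of the 9 genes and so weighed more in these values.

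Nkx2-2, a homeodomain factor of ventral progenitors that promotes differentiation (chromosome 2, 147177546 to 147194243, minus strand, beside its antisense RNA Nkx2-2os), was at 0.468, 0.936, 1.09 and 1.40 TPM in saline females and at 0.196, 0.484 and 0.591 TPM in AVP females. AVP females overlapped only the lowest saline female, and the exact permutation test gave p = 0.114. In males the order was the other way, with 0.505, 0.789, 0.953 and 1.01 TPM in saline and 0.800, 0.962, 1.58 and 1.95 TPM in AVP (exact permutation p = 0.171). Of these sums, the main coding transcript of 2120 nt was 0.536 ± 0.0677 TPM in saline and 0.679 ± 0.290 TPM in AVP males (SD, n = 4 each), and short processed transcripts of 340 and 378 nt and a second coding transcript of 1053 nt made up the rest. The groups overlapped, and the gene was too low for the test of a difference between the sexes.

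The surface molecules had overlapping female groups. Pdgfra, the receptor for platelet-derived growth factor A (chromosome 5, 75152292 to 75198215, plus strand), was at 11.8, 11.99, 13.1 and 15.9 TPM in saline females and 10.4, 13.3 and 14.97 TPM in AVP females. The groups overlapped throughout, and the log2 fold change was -0.04 with a 95% interval from -0.43 to 0.35. Cspg4, the NG2 proteoglycan of precursors and pericytes (chromosome 9, 56865033 to 56899870, plus strand), was at 2.52, 3.13, 3.61 and 3.79 TPM in saline females and 2.72, 2.75 and 3.07 TPM in AVP females. Its log2 fold change was -0.16 with a 95% interval from -0.60 to 0.28, and the groups overlapped here too. Of the Cspg4 value, 55.6% on average came from a 2-exon retained-intron transcript and 36.3% from the 10-exon coding transcript. The retained-intron transcript averaged 1.97 ± 0.381 TPM in saline and 1.42 ± 0.608 TPM in AVP females (SD, n = 4 and 3). The coding transcript averaged 1.03 ± 0.255 and 1.25 ± 0.680 TPM, the other direction. The groups overlapped for both transcripts.

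Gpr17, an orphan receptor of cells about to differentiate (chromosome 18, 31942997 to 31949636, minus strand), was at 2.63, 3.99, 4.58 and 5.84 TPM in saline females and at 1.07, 2.18 and 3.21 TPM in AVP females. The AVP library at 3.21 TPM was above the lowest saline library, so the groups overlapped, although the AVP mean was 50.5% of the saline mean. The log2 fold change was -0.88 ± 0.34 (SE; limma adjusted p = 0.999) and the exact permutation p was 0.0857. Without AVP female 11 the log2 fold change was -0.55 and the unadjusted p above 0.05, as it was without saline female 6 (-0.73). The gene overlaps Lims2 on the opposite strand, and the study counted reads by strand.

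Cnp, the CNPase of differentiating oligodendrocytes (chromosome 11, 100574904 to 100591729, plus strand), was at 9.27, 9.43, 10.8 and 11.5 TPM in saline females and at 4.98, 8.23 and 9.73 TPM in AVP females. One AVP library reached into the saline range, and the log2 fold change was -0.44 ± 0.22 (SE; limma adjusted p = 0.999; exact permutation p = 0.0857). Lhfpl3, a membrane protein gene used as a precursor marker (chromosome 5, 22746059 to 23275597, plus strand), was at 5.003, 8.35, 8.77 and 10.4 TPM in saline females and at 2.27, 6.14 and 8.15 TPM in AVP females. Its groups overlapped, with a log2 fold change of -0.63 ± 0.40 (SE; limma adjusted p = 0.999; exact permutation p = 0.257). Without AVP female 11, the library lowest in both, the log2 fold changes were -0.18 for Cnp and -0.14 for Lhfpl3.

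Library numbers repeat the order of the groups in a first run of 7 libraries and a second of 8, which the labels do not name as batches, and the female difference was read within each. For Olig1 it was -0.58 on the log2 scale in the first run, with 1 AVP and 2 saline libraries, and -0.95 in the second, with 2 of each. For Olig2 it was -0.62 and -0.52. For Gpr17 it was -0.26 and -1.22, so most of its difference lay in the second run, which holds AVP female 11. With the run as a covariate the log2 fold changes were -0.80, -0.56 and -0.84.

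Markers of other cells were higher in the same female comparison. Of 10 meningeal fibroblast markers, 9 were higher in AVP females at an unadjusted p under 0.05, against 354 of 15132 genes in all. None of the 10 markers passed adjustment, and their median log2 fold change was 0.88. Their summed level was 127 to 155 TPM in saline females and 216 to 308 TPM in AVP females, and none was at 0. Dcn (log2 fold change 0.97, limma adjusted p = 0.998), a proteoglycan of fibroblasts, had the smallest p, followed by the collagen genes Col1a2 (0.86) and Col3a1 (0.97) and by Ogn (1.04). Of the mural cell markers, 3 of 9 tested were higher at that threshold, among them Vtn (0.57), and their summed level was 114 to 148 TPM in saline and 171 to 177 TPM in AVP females. Markers of the ventral forebrain, the source of the first precursors, were below 0 in 10 of 10, against 63.1% of all genes, with a median of -0.23. None of the 10 had an unadjusted p under 0.05. Their summed levels were 206 to 247 TPM in saline and 156 to 248 TPM in AVP females. Dlx1 and Lhx6 were the highest of these markers, at means of 56.1 and 45.9 TPM. Summed radial glia and astrocyte markers, led by Fabp7 and Vim, spanned 2376 to 2762 TPM in saline and 2066 to 3232 TPM in AVP females. The part of these markers in the Olig1, Olig2 and Gpr17 values was not tested. In males none of the 10 meningeal markers had an unadjusted p under 0.05 in limma. Their sums spanned 66.0 to 296 TPM in saline and 139 to 281 TPM in AVP males. All 10 had a male log2 fold change above 0, with a median of 0.18, whereas 73.6% of all genes were below 0. In the test of a difference between the sexes, none of the 10 had an unadjusted p under 0.05 (4.14% of all genes).

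In males the same comparison gave no gene of the 8 tested at an adjusted p under 0.05, against 0.00655% of all 15271 genes, and none at an unadjusted p under 0.05, against 13.5% of all genes. The median log2 fold change was -0.13, close to the -0.10 of all genes. No gene had every AVP male below every saline male, a pattern seen in 6.54% of all genes. Olig1 was at 25.4, 31.3, 32.6 and 38.9 TPM in saline males and at 18.7, 28.3, 34.2 and 40.5 TPM in AVP males. The groups overlapped across nearly their whole range, and the log2 fold change was -0.11 with a 95% interval from -0.62 to 0.40. Olig2 was at 11.02, 13.7, 16.2 and 16.5 TPM in saline males and at 10.9, 11.7, 12.2 and 14.3 TPM in AVP males. Its groups overlapped, with a log2 fold change of -0.21 (95% interval -0.54 to 0.12; limma adjusted p = 0.527). Gpr17 was at 3.33, 3.54, 4.37 and 4.94 TPM in saline males and at 2.81, 3.09, 3.85 and 4.25 TPM in AVP males, overlapping as well, with a log2 fold change of -0.18 (limma adjusted p = 0.656).

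The other 5 tested genes had male log2 fold changes from -0.25 for Sox10 to 0.08 for Lhfpl3. Sox10 was at 3.07, 4.64, 4.72 and 5.02 TPM in saline males and 2.97, 3.40, 3.83 and 4.04 TPM in AVP males, with no library set apart. Pdgfra was at 14.5, 15.3, 15.5 and 16.7 TPM in saline males and at 12.3, 13.3, 13.3 and 19.3 TPM in AVP males. Here 3 AVP libraries were below all saline libraries and AVP male 2 was above them, and the log2 fold change was -0.11 (limma adjusted p = 0.764). Cspg4 (3.36 to 4.31 TPM in saline and 2.80 to 3.72 TPM in AVP males), Cnp (7.54 to 10.2 and 7.47 to 10.5 TPM) and Lhfpl3 (5.77 to 8.59 and 5.70 to 9.95 TPM) overlapped in the same way. Within runs the male difference of Olig1 was 0.24 on the log2 scale in the first and -0.46 in the second. Without the library labelled saline male 12, the male values were -0.10 for Olig1, -0.15 for Olig2 and -0.24 for Gpr17.

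**Figure D4:**
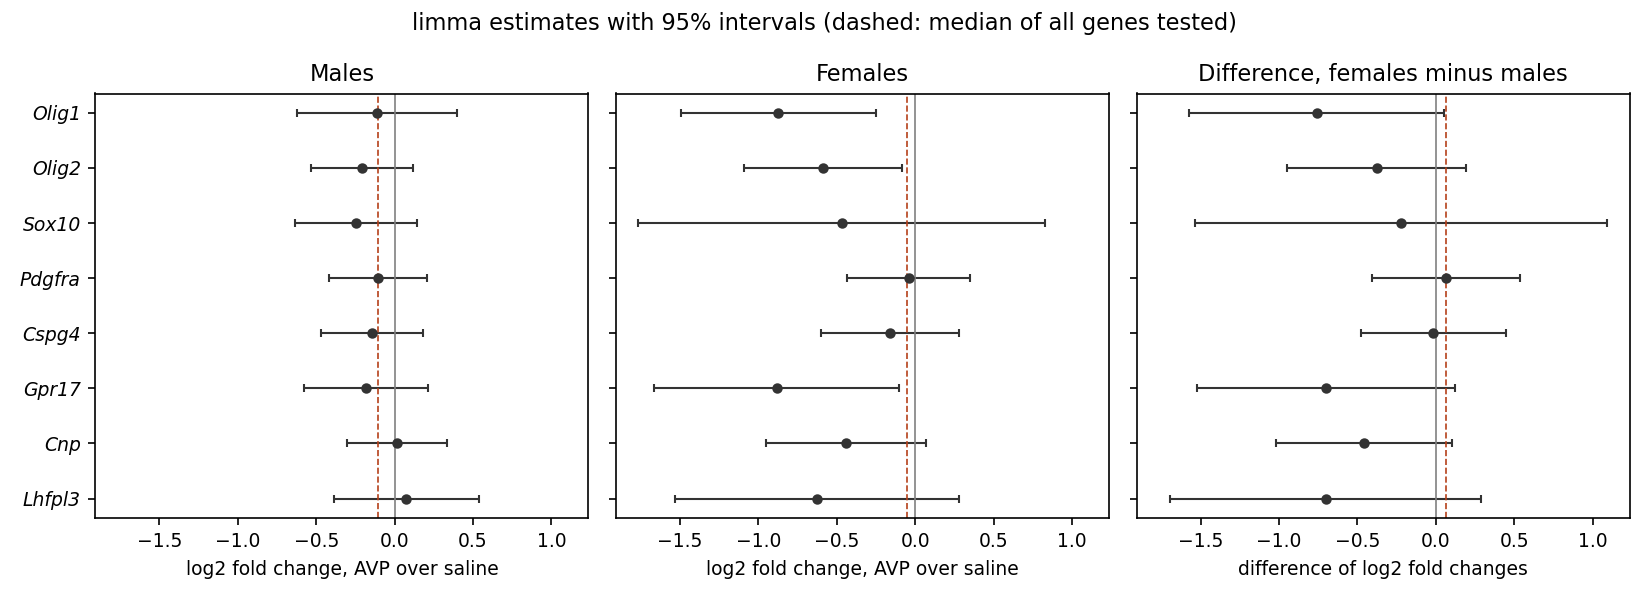
limma estimates on the log2 scale with 95% intervals for the 8 genes tested, in males (4 against 4 libraries), in females (3 against 4) and as the difference of both (15 libraries), with a dashed line at the median of all genes tested. In females the intervals of Olig1, Olig2 and Gpr17 do not reach 0, before adjustment for the number of genes, while all intervals of the difference between the sexes include 0.

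Whether the sexes differed was tested by an interaction term in a fit of the 15 libraries. None of the 8 genes passed an adjusted p of 0.05 (0% of 15078 genes) or an unadjusted p under 0.05 (4.14% of all genes). The difference of log2 fold changes, females minus males, was -0.76 for Olig1 with a 95% interval from -1.57 to 0.05 (limma adjusted p = 0.896). It was -0.38 for Olig2, -0.70 for Gpr17 and -0.46 for Cnp, with an adjusted p of 0.896 for each. A response of Olig1, Olig2 or Gpr17 in one sex only was therefore not shown. The median over the 8 genes was -0.42, against 0.07 for all genes. Without AVP female 10, Olig2 (-0.56), Cnp (-0.65) and Lhfpl3 (-1.04) were at an unadjusted p under 0.05. The AVP females left were then AVP female 3 and AVP female 11. Olig1 and Gpr17 were under that p in at least 1 alternative too, and none of the 8 genes was without AVP female 11. No alternative gave an adjusted p under 0.05 for any of the 8 genes.

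With both sexes in 1 fit and sex as a term, 3 of 8 genes had an unadjusted p under 0.05, all lower with AVP, against 10.4% of all genes in either direction and 9.69% lower, and none passed adjustment (0% of all genes). These were Olig2 (log2 fold change -0.38 ± 0.14 SE, limma adjusted p = 0.462), Gpr17 (-0.51 ± 0.21 SE, limma adjusted p = 0.465) and Olig1 (-0.46 ± 0.21 SE, limma adjusted p = 0.474). Since these 3 genes varied together within groups, they are not 3 separate results. The median over the 8 genes was -0.30, against -0.08 for all genes. Without AVP female 11 the values were -0.28 for Olig2, -0.33 for Gpr17 and -0.29 for Olig1, of which only Olig2 was at an unadjusted p under 0.05. Without the library labelled saline male 12 they were -0.37 for Olig2, -0.56 for Gpr17 and -0.49 for Olig1, each at an unadjusted p under 0.05.

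In saline offspring, females and males were compared without AVP, with saline male 12 under its label. No adjusted p (0.0065% of 15385 genes) and no unadjusted p (4.15% of all genes) was under 0.05 for any of the 8 genes. Cnp was nearest, at 10.2 ± 1.1 TPM in females and 8.40 ± 1.23 TPM in males (SD, n = 4 each), with a log2 difference of 0.28 (limma adjusted p = 0.928), followed by Pdgfra, at 13.2 ± 1.92 and 15.5 ± 0.922 TPM, with -0.23 (limma adjusted p = 0.928). Olig2 was nearly equal, at 14.4 TPM in both sexes. Without saline male 12 the differences were 0.23 for Cnp, -0.24 for Pdgfra and 0.061 for Olig2, and Gpr17 turned from 0.037 to -0.015. Without saline female 6 Pdgfra was at -0.32, then at an unadjusted p under 0.05 (limma adjusted p = 0.99993), and the median of the 8 genes turned from 0.092 to -0.055.

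The next question was whether the genes varied together between libraries of 1 group. Each gene's log2 value was taken as its distance from its group's mean, and 36 pairs were correlated over 15 libraries. In 35 pairs Pearson's r was above 0, with a median of 0.56, and in 17 pairs the permutation p, adjusted over the 36 pairs, was under 0.05. Scaling libraries by median-of-ratios or quantiles left 10 such pairs. The residuals share the means removed from them, so these p-values are approximate.

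**Figure D5:**
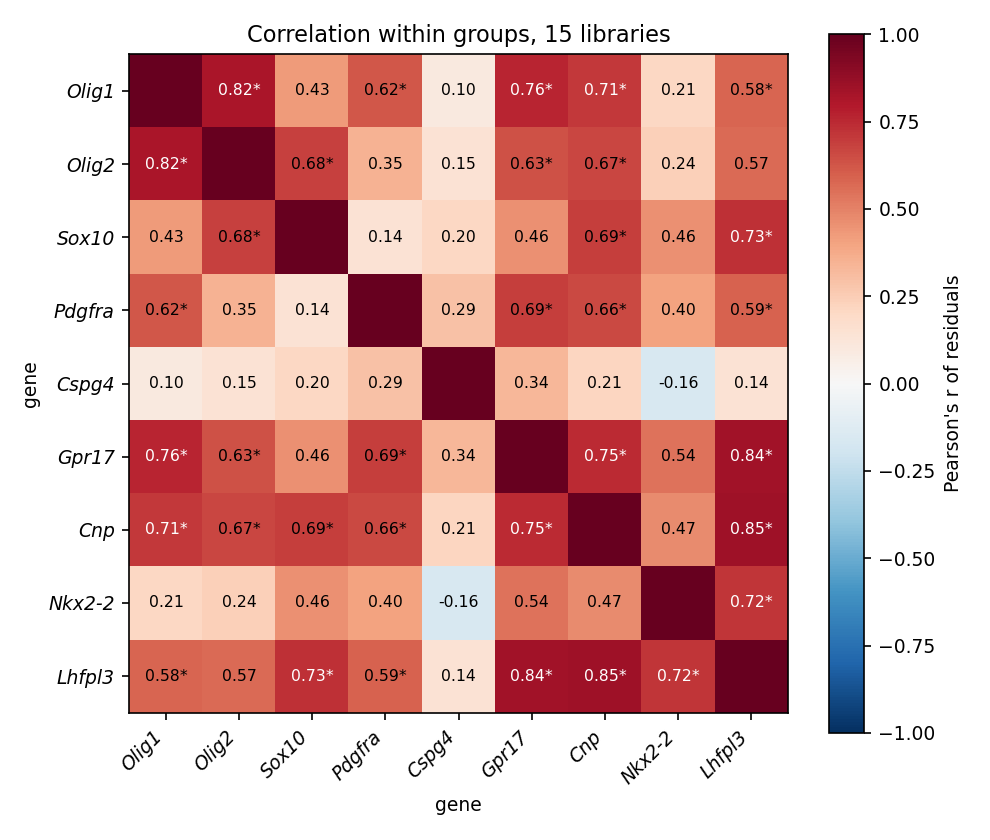
Pearson's r of the residuals of log2(TPM + 0.5) from the 4 group means for each pair of the 9 genes over 15 libraries, from blue (-1) to red (1), with an asterisk where the permutation p adjusted over 36 pairs is under 0.05. Cspg4 has no asterisk with any of the other 8 genes, and Cnp and Lhfpl3 have 6 each.

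Cnp with Lhfpl3 had the highest r (0.85; rho = 0.81; permutation p = 4.0e-05, adjusted p = 0.00144), falling to 0.66 without the 2 libraries farthest from the median. Gpr17 with Lhfpl3 followed (r = 0.84, rho = 0.80; permutation p = 9.0e-05, adjusted p = 0.00162; 0.67 without 2 libraries). Olig1 with Olig2 had r = 0.82 and rho = 0.86 (permutation p = 2.2e-04, adjusted p = 0.00264), and 0.79 without the 2 farthest libraries. Within the first run r was 0.99 and within the second 0.88. Each run held at most 2 libraries of a group, whose distances from their own mean mirror each other. These r therefore rest on far fewer independent values than libraries and add no support. Olig1 and Gpr17 (r = 0.76, rho = 0.74, permutation p = 0.00115, adjusted p = 0.0103) and Gpr17 and Cnp (r = 0.75, rho = 0.72, permutation p = 0.00144, adjusted p = 0.0104) were also above 0.6 without 2 libraries, at 0.66 and 0.62. Nkx2-2 passed with Lhfpl3 (r = 0.72, rho = 0.74, permutation p = 0.00273, adjusted p = 0.0128; 0.64 without 2 libraries).

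Sox10 with Lhfpl3 (r = 0.73, rho = 0.61, permutation p = 0.00215, adjusted p = 0.0128) fell to 0.42 without AVP female 10 and AVP female 11, and so rested on those libraries. Without both libraries with neural crest transcripts it was 0.61 (permutation p = 0.0285, adjusted p = 0.05702). For pairs of the 9 genes, the 2 farthest libraries were those of the gene named first. AVP female 11 was among them for Olig1, Sox10, Cnp and Gpr17. Nkx2-2 with Lhfpl3 was read without AVP male 1 and saline female 7 instead. That value therefore kept AVP female 11, the library in which Lhfpl3 was farthest below its group mean (-0.97 on the log2 scale). Cspg4 reached an adjusted p under 0.05 with none of the other 8 genes, with r from -0.16 to 0.34.

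High correlation was common among all genes. For Olig1, 12.98% of 15025 other genes had an r of at least 0.6 in size, Olig2 ranked 175 by r, Gpr17 379 and Cnp 628. For Cnp the share was 19.5%, and Lhfpl3 ranked 286 by r. For Lhfpl3 it was 19.2%, and Cnp ranked 326. Genes whose pattern was most like the mean of Olig1, Olig2 and Sox10 over the 15 libraries included Dmtn (r = 0.97), Agap2 (0.96), Camk2b (0.95), Arhgap44 (0.94), Atp1b1 (0.94), Fbxo41 (0.94), Ttll5 (0.93), Grm2 (0.93) and Cadm3 (0.93). None of these was on a list used here, and Camk2b encodes a neuronal kinase. Genes most like Pdgfra included 1500009L16Rik (r = 0.94), Dand5 (0.93), C1ql3 (0.92) and Dgat2 (0.92), and Cspg4 was most like Mtor (0.91), Zfp385a (0.80), Nmral1 (0.80), Notch1 (0.79) and Phykpl (0.78).

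None of 36 relations of the 9 genes with the mean residuals of meningeal fibroblast, mural cell, ventral forebrain, and radial glia and astrocyte markers had an adjusted permutation p under 0.05. Before adjustment 1 did, Cnp with radial glia and astrocyte markers (r = 0.58, rho = 0.35, permutation p = 0.0244, adjusted p = 0.467), which fell to 0.11 without AVP female 10 and AVP female 11. Within groups Olig1 had r = -0.24 with the meningeal markers and 0.06 with the ventral forebrain markers, and Olig2 had -0.32 and 0.05, with adjusted permutation p-values from 0.539 to 0.872. Within the first and the second run r with the meningeal markers was -0.60 and -0.61 for Olig1 and -0.66 and -0.40 for Olig2. With the ventral forebrain markers it was 0.12 and 0.76 for Olig1 and 0.06 and 0.45 for Olig2. The pooled values thus differ from those within runs of 7 and 8 libraries. With at most 2 libraries of a group in a run, few of the values within runs were independent, and they were not tested.

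Sequence before the start was looked at for Olig2, one of the genes without overlap in females, and for Cnp and Lhfpl3, the pair with the highest correlation. Each line gives bases upstream of both the RefSeq and the GENCODE start, 5′ to 3′ on the gene's plus strand, from RefSeq promoters of build GRCm38.p6, which held 6 of the 9 genes. Capitals mark the E-box CANNTG, the motif class that OLIG and other basic helix-loop-helix factors bind, searched on both strands.
Olig2 (chr16:91225300-91225456): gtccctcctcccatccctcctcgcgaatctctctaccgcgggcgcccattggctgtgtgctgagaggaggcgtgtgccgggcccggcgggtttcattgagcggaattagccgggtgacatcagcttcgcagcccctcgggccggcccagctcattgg
Cnp (chr11:100574689-100574903): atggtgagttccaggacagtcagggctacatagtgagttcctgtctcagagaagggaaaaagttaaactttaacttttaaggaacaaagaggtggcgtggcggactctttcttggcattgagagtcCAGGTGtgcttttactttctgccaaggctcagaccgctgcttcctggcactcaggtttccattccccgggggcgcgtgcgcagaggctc
Lhfpl3 (chr5:22745804-22746053): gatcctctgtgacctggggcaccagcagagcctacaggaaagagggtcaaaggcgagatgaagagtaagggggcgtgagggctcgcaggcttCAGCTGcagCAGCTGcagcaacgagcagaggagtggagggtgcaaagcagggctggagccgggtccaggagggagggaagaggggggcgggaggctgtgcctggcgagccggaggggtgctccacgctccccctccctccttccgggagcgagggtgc
The E-box occurred 2 times before Lhfpl3, as CAGCTG, and 1 time before Cnp, as CAGGTG, while the letters were in neither the stretch shown nor the full 300-base window of Olig2. Of 32851 promoters of 300 bases, 72.3% held at least 1 E-box, so its presence is common.

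Growth factor signalling around the receptor was read from a list of 5 genes. None of those tested passed adjustment in any comparison. Pdgfa, the ligand of PDGFRA, was the highest at a mean of 20.8 TPM, followed by Pdgfc at 9.80 TPM. In females 1 of 5 had an unadjusted p under 0.05 (4.51% of all genes), Pdgfrb, the receptor of mural cells (log2 fold change 0.33, limma adjusted p = 0.999), and in males none of 4. Its interaction, 0.48, was also under that p. Of 9 hedgehog pathway and ventral patterning genes, 6 were tested and none passed adjustment. Smo (14.4 TPM) and Ptch1 (7.10 TPM), the transducer and the receptor of the pathway, were the highest, while the ligand Shh was at 0.183 TPM. At an unadjusted p under 0.05, 1 of 6 was higher in AVP females, against 354 of 15132 genes in all. This was Gli3, a repressor of the pathway (log2 fold change 0.44, limma adjusted p = 0.999). In the other direction 1 of 6 was lower in males, against 12.4% of all genes, and 1 of 6 with sex as a term, against 9.69%. In males all 6 were below 0, as were 73.6% of all genes (median -0.14 against -0.10 for all genes).

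Among 16 lineage transcription factors and partners, 14 were tested and none passed adjustment. In females none had an unadjusted p under 0.05, and their median log2 fold change was 0.05, against -0.53 for the precursor genes. In the fit with sex as a term 1 of 14 was lower with AVP at that threshold, against 9.69% of all genes. This was Sox8, a relative of Sox10 with overlapping roles (log2 fold change -0.39, limma adjusted p = 0.462). In males 2 of 14 were lower at an unadjusted p under 0.05, Tcf4, a partner of OLIG2 (-0.31, limma adjusted p = 0.304), and Sox9 (-0.30), a share near the 12.4% of all genes that were lower in males. In the interaction 2 of 14 were under it, against 4.14% of all genes, Tcf4 (0.47) and Tcf7l2 (0.73). Tcf4 (216 TPM) and Zeb2 (102 TPM) were the highest of this list, and both are also expressed by cortical neurons.

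At an unadjusted p under 0.05, 354 of 15132 genes were higher in AVP females, and 1 of 6 inhibitors of oligodendrocyte differentiation was among them. This was Bmp4, a signal that turns precursors towards astrocytes, at 1.91, 2.15, 2.28 and 2.40 TPM in saline females and 3.47, 4.98 and 8.56 TPM in AVP females. The groups did not overlap, and 2.78% of all genes tested likewise had every AVP female library higher. The log2 fold change was 1.12 ± 0.28 (SE; limma adjusted p = 0.999). In males Bmp4 overlapped, from 1.39 to 9.90 TPM in saline and 1.83 to 6.45 TPM in AVP, and its interaction was 1.36 (limma adjusted p = 0.896). Meningeal markers were higher in the same AVP female libraries, and their part in the Bmp4 values was not tested. In males 1 of 6 was lower at an unadjusted p under 0.05, near the 12.4% of all genes that were lower. This was Lingo1, a receptor component that restrains differentiation (-0.19, limma adjusted p = 0.367). Id2 (484 TPM) and Lingo1 (80.3 TPM) were the highest of the list.

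Of 16 other precursor-enriched genes, 14 were tested and none passed adjustment. In females none had an unadjusted p under 0.05, with a median log2 fold change of -0.17. In males 1 of 14 did, against 12.4% of all genes lower, Bcan, a proteoglycan of precursors and astrocytes (log2 fold change -0.56, limma adjusted p = 0.304). In the fit with sex as a term Bcan (-0.54) and C1ql1 (-0.37) were lower at that threshold (9.69% of all genes were), with adjusted p-values of 0.462 and 0.478. Cacng4 (106 TPM) and Ptprz1 (99.6 TPM) were the highest of this list.

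Of 10 genes of newly formed oligodendrocytes, 9 were tested in females and 8 in males, and none had an unadjusted p under 0.05 in either sex. With sex as a term 3 of 9 were lower at that threshold, against 9.69% of all genes, Gpr37 (log2 fold change -0.36), Sirt2 (-0.17) and Bcas1 (-0.28), with adjusted p-values from 0.462 to 0.479. Fyn (161 TPM) and Mycl (83.8 TPM) were the highest. Of 15 myelin genes, 8 were tested in females. Of these, Cldn11 (0.81) and Trf (0.56) were higher at an unadjusted p under 0.05 (354 of 15132 for all genes), each at an adjusted p of 0.999. In males 1 of 7 tested was lower at that threshold, against 12.4% of all genes. Cldn11 is also a gene of meningeal barrier cells, and Trf of choroid plexus.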

How the data were processed

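mRNA-seq of E18 dorsal forebrain was read for 15 libraries. The authors removed adapters with Trim Galore 0.4.1, checked reads with FastQC 0.5.2 and quantified GENCODE M16 transcripts (GRCm38) by strand with kallisto 0.43.1. The deposited values are TPM, relative to transcript length and the library's total, so depth per library is unknown, no counting interval is given, and no count model was used. Sleuth 0.29.0 was the authors' test and was not run. With it the study called genes in both sexes, among them Dcn, Col1a2 and Cldn11 in females. The limma test on summed TPM did not call these genes, so the absence of calls here holds for that test only. With GENCODE M21, 133849 transcripts were collapsed by adding TPM into 53337 genes, leaving out 404 transcripts without a gene (0.154% to 0.199% of TPM). A gene was tested where 50% or more of a comparison's libraries reached 1 TPM. Tests used limma 3.58.1 in R 4.3.3 (trend option) on log2(TPM + 0.5), with Benjamini-Hochberg adjustment over all tested genes and a threshold of 0.05. The script was tested on simulated data. Fold changes on this scale understate changes of low genes. Single genes had an exact two-sided permutation test, and correlations of residuals had 100000 resamples (numpy 2.4.6).

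The 9 genes and all lists were chosen with earlier results of these data known. All 9 genes were named in every comparison. From each list those with an unadjusted p under 0.05 in an AVP comparison, at most 4, and the 2 highest by mean TPM were named, together with the genes of the most similar pattern. Some genes that these rules name are not reported here. Markers at or near 0 and others named for a role, such as Shh and Myrf, were chosen after their values were seen. Alternatives were pseudocounts of 0.1 and 1, no filter, 5 TPM in every library, median-of-ratios and quantile scaling, no trend, the run of library numbers as a covariate, a joint fit of the 15 libraries, and each library left out in turn. Leaving out both libraries with neural crest transcripts was added after seeing the data.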

Additional observations from a re-analysis of the deposited data

Results flagged for a closer look

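In groups of 4 libraries, 75 sets of values were examined for a library far from the others by Dixon's test, which chance flags about 1 time in 20, and 8 were flagged. Of these, 3 concerned the precursor genes. Olig1 was 50.7 TPM in saline female 6 against 30.7 to 32.4 TPM in the other saline females, Pdgfra was 19.3 TPM in AVP male 2 against 12.3 to 13.3 TPM in the other AVP males, and Cspg4 was 4.31 TPM in saline male 13 against 3.36 to 3.47 TPM in the other saline males. Without saline female 6 the female log2 fold change of Olig1 was -0.71, still at an unadjusted p under 0.05. In AVP male 2 the summed mural cell markers were also the highest of their group, at 156 TPM against 131 to 135 TPM.

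Saline female 15 had 5.69 TPM over the Schwann cell and neural crest markers against 0.471 to 0.717 TPM in the other saline females, and 95.9 TPM over the myelin genes against 47.3 to 53.3 TPM. AVP female 10 had 8.15 TPM and 124 TPM over the same lists, in a group of 3 that the test does not cover. The library labelled saline male 12 had Xist at 266 TPM against 0.457 to 1.13 TPM in the other saline males, and 0.489 TPM summed over 4 Y-linked genes against 145 to 155 TPM.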

How the results depend on the processing

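None of the 8 genes passed an adjusted p of 0.05 in limma under any alternative, in any of the 5 comparisons, while 0 to 6 of all genes did. With sex as a term the median of the 8 genes was -0.12 without AVP female 11. Of 739 alternative values of single genes, 698 kept the direction. AVP female 11 decided the size of the female differences: the median of the 8 genes was -0.16 without it, -0.85 without AVP female 10 and -0.53 with all libraries. A filter of 5 TPM in every library left 3 genes to test in females and 5 in males. Labels give no replicate number shared between groups, so no block was fitted.

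Most directions that turned were of values near 0, other than Sox10, which turned without AVP female 11 in females and, in the interaction, without AVP female 11 or saline female 15. In males Pdgfra was 0.0042 with median-of-ratios scaling, and Olig1 0.025, Pdgfra 0.042 and Cspg4 0.013 with quantile normalization. In the interaction Pdgfra was -0.015 with median-of-ratios scaling, -0.050 with quantile normalization and -0.0052 without both libraries with neural crest transcripts, where Cspg4 was 0.051. Between the sexes in saline Olig2 was 0.034 and 0.057 under the 2 scalings, and with sex as a term Pdgfra was 0.019 with quantile normalization. Leaving out 1 library at a time gave ranges across 0 in males for Cnp (-0.084 to 0.11), Lhfpl3 (-0.055 to 0.20) and Olig1 (-0.27 to 0.098), in females for Pdgfra (-0.15 to 0.10) and Sox10 (-1.15 to 0.094), in the interaction for Cspg4 (-0.12 to 0.051), Pdgfra (-0.049 to 0.21) and Sox10 (-0.90 to 0.34), and in saline for Olig2 (-0.13 to 0.069) and Gpr17 (-0.12 to 0.22). The cause was not tested. The number of correlated pairs was 17, and 10 under either scaling, 15 to 19 under other pseudocounts and without saline male 12 or both libraries with neural crest transcripts. Sox10 with radial glia and astrocyte markers had r = -0.020 without both libraries with neural crest transcripts.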

Other observations

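Genes most like Sox10 over the 15 libraries, chosen for naming after their values were seen, were led by Grm8 (r = 0.95), Dffa (0.95), Shc4 (0.95) and Ndrg4 (0.95), with Matn4 (0.94) seventh. Matn4, a matrix protein gene on the list of precursor-enriched genes, was at 9.96 TPM in AVP female 10 and 9.20 TPM in saline female 15, and at 0.761 to 2.18 TPM in the other 13 libraries. In AVP female 10 the summed diencephalon markers were also the highest of all libraries, at 44.0 TPM against at most 29.5 TPM in the others, and in saline female 15 they were at 27.9 TPM.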
